A study of Mus musculus with 12 samples.

Results

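The VEGF system of the mouse gut stroma was read here through 10 genes: the ligand genes Vegfa, Vegfb, Vegfc, Vegfd and Pgf, the receptor genes Flt1, Kdr and Flt4, and the co-receptor genes Nrp1 and Nrp2. They were taken by name from the 32052 genes of the deposited count table, after Ensembl identifiers had been mapped to symbols. All 10 were found, and all 10 passed the filter on low counts that 16757 genes passed. For the comparison of vessel types, Vegfc, Vegfd, Flt4 and Nrp2 were set as the 4 lymphatic members and the other 6 as blood vessel members.

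VEGF ligands are secreted dimers that drive the growth and upkeep of vessels through receptor tyrosine kinases on endothelial cells. VEGF-A acts mainly through KDR on blood vessels, while FLT1 binds VEGF-A, VEGF-B and PlGF with high affinity and is widely regarded as a decoy for VEGF-A. VEGF-C and VEGF-D act mainly through FLT4 on lymphatic endothelium, and the neuropilins NRP1 and NRP2 are co-receptors that also bind class 3 semaphorins. In the mouse intestine, VEGF-C maintains the lacteals, the lymphatic vessels of the villi that take up dietary fat, and VEGF-A maintains the fenestrated blood capillaries beside them.

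Total RNA of sorted gut stromal cells was sequenced in 12 libraries, 3 in each of 4 groups. The groups were GFP-positive and GFP-negative cells of the small intestine and GFP-positive and GFP-negative cells of the colon. All 4 came from C57Bl6 mice of 8 to 12 weeks that carried an Rspo3-GFP transgene, a reporter for the gene of the Wnt amplifier R-spondin 3, and all were sorted as EPCAM-negative and CD45-negative, which removes most epithelium and leukocytes. How the transgene was built and whether animals were pooled is not given in the sources used here, and samples sorted on CD31 are not analysed here. In the deposited names both sorts of a replicate share an identifier (for colonic replicate 1 only the tissue name), and all 4 replicate 3 libraries share 1, so these may have 1 source, while the main test takes all libraries as independent. Since no label states that replicates came from separate animals, p-values measure the spread between these libraries, which may be technical.

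The libraries held 6489835 to 12286054 counts. Values per library are given as CPM, counts scaled to a common normalized library size. A gene was called where edgeR's quasi-likelihood test gave a Benjamini-Hochberg adjusted p under 0.05 over all tested genes. Rspo3, the gene behind the sort, had 191 to 196 CPM in GFP-positive against 4.50 to 13.7 CPM in GFP-negative libraries of the small intestine, and 117 to 161 against 2.28 to 6.51 CPM in the colon. The GFP-positive gate mixed cell types: the 12 lymphatic endothelial markers, Flt4 among them, summed to 4351 to 15172 CPM and the 12 fibroblast markers to 41198 to 63114 CPM in the small intestine, and to 18176 to 21233 and 20826 to 25479 CPM in the colon. Small intestine replicate 3 stood apart in both sorts. Its GFP-positive library had the lowest sum of the 12 pan-endothelial markers (950 CPM, against 2081 and 3414 CPM in the other GFP-positive libraries), and its GFP-negative library had a leukocyte marker sum of 3375 CPM, against 54.2 and 98.5 CPM in the other 2.

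In the small intestine, Flt4, Nrp2 and Vegfd were higher in GFP-positive than in GFP-negative cells, and Flt1 and Nrp1 were lower. In the colon the same 5 genes moved in the same directions, and Kdr was also higher and Vegfa lower. So 5 of 10 members were called in small intestinal cells, 3 higher and 2 lower, where 10.9% of all tested genes were called (4.24% higher and 6.63% lower). In the colon 7 of 10 were called, 4 higher and 3 lower, against 8.69% of all genes (4.62% higher and 4.06% lower). The 5 members called in both tissues, all with the same sign, were 100% of the small intestinal and 71.4% of the colonic calls among members. Over all tested genes, 545 were called in both with the same sign, which was 29.9% and 37.4% of the calls. Of the 4 lymphatic members, 3 were higher and none lower in either tissue, with a median log2 difference of 2.11 in small intestinal and 1.43 in colonic cells. Of the 6 blood vessel members, none was higher and 2 were lower in small intestinal cells (median -0.20), and 1 was higher and 3 were lower in colonic cells (median -0.87). The median of all tested genes was -0.03 in both tissues. In such bulk libraries, fewer cells of a type and less RNA per cell cannot be told apart.

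**Figure D1:**
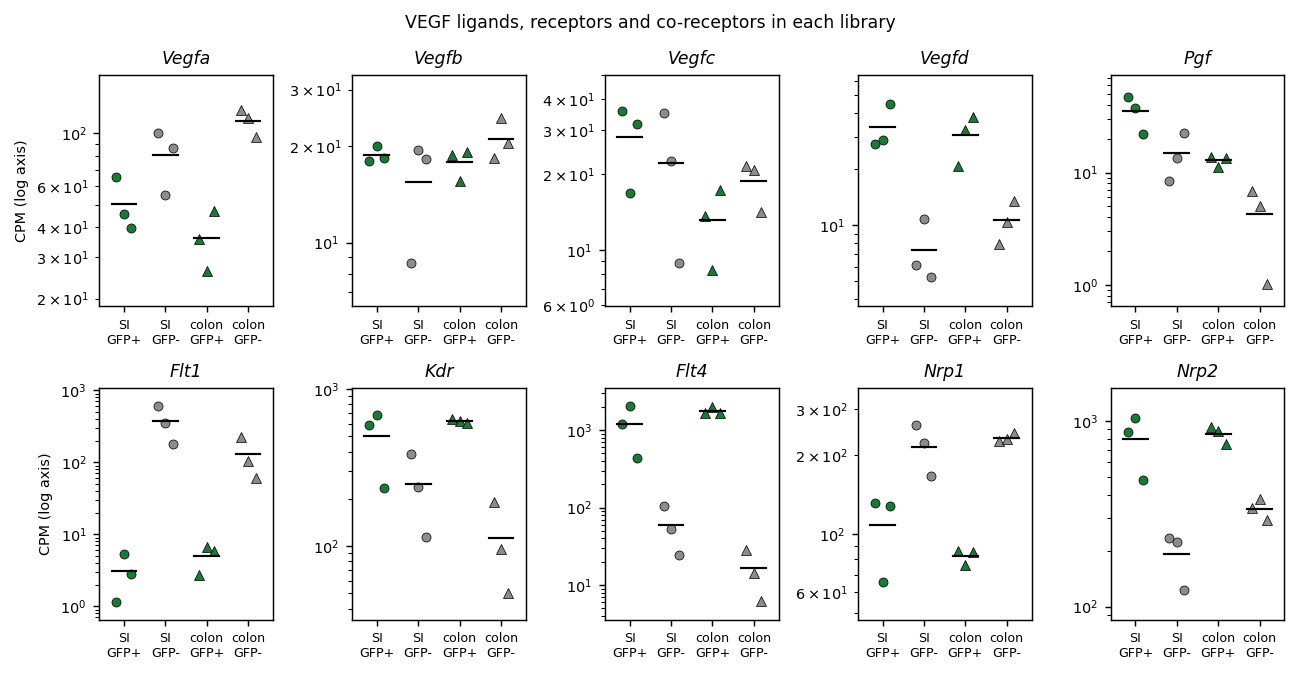
Normalised counts (CPM, log axis) of the 10 members in each of the 12 libraries, 3 per group, with circles for small intestine, triangles for colon, green for GFP-positive, grey for GFP-negative and a bar at the group mean. The Flt1 panel has GFP-positive libraries at 1.16 to 6.60 CPM under GFP-negative ones at 61.2 to 609 CPM, and the Flt4 panel has the opposite order, with 433 to 2027 CPM over 6.21 to 104 CPM.

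Of the members, the receptors Flt1 and Flt4 differed most between the sorts in both tissues. Flt1 and Flt4 had opposite patterns in the same libraries, while Kdr was called as higher in the colon only. The windows around the starts of these 3 receptor genes are shown for that reason. Each runs 5' to 3' on the gene's own strand over 300 bases (RefSeq, GRCm38.p6), and capitals mark GGAA, the core bound by ETS factors of endothelium, on either strand (TTCC on the other). In Flt1, capitals also mark TGACGTCA, the cyclic AMP response element. The windows are chr5:147725962-147726261 (minus strand) for Flt1, chr5:75978406-75978705 (minus strand) for Kdr and chr11:49609429-49609728 (plus strand) for Flt4.
Flt1: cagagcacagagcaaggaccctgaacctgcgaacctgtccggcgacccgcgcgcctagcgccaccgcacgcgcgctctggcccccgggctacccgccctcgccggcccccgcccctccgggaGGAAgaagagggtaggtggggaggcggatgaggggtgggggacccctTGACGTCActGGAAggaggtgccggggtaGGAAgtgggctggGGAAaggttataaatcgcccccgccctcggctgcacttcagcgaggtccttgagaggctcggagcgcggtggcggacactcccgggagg
Kdr: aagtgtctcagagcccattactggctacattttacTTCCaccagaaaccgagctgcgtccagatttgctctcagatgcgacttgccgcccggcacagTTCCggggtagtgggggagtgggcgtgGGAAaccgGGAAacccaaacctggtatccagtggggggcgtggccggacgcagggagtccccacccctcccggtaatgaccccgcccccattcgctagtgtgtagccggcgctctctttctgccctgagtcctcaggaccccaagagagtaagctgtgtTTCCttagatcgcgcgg
Flt4: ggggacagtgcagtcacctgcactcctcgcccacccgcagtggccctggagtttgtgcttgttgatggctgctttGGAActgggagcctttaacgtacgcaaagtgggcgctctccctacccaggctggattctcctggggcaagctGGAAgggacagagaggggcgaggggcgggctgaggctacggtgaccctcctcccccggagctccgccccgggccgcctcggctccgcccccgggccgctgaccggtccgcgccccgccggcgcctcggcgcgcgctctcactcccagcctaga
GGAA was found 4 times in the Flt1, 5 times in the Kdr and 2 times in the Flt4 window. It occurred in 12 of the 12 member windows and in 96.0% of the 32851 promoter windows searched, so its presence does not set the members apart. TGACGTCA occurred in 1.8% of all windows and, among members, only in that of Flt1, where it began at position -81 relative to the start. The 3 windows were rich in G and C (70.7% in Flt1, 60.7% in Kdr and 70.3% in Flt4). These matches describe letters and are no evidence of binding.

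Flt1 (ENSMUSG00000029648, chromosome 5, 147561604 to 147726011, minus strand, GRCm38) was nearly absent from GFP-positive cells. It had 1.16, 5.32 and 2.83 CPM in GFP-positive replicates 1 to 3 of the small intestine, against 609, 353 and 177 CPM in GFP-negative ones. In the colon the GFP-positive libraries had 2.75, 6.60 and 5.83 CPM, against 222, 106 and 61.2 CPM in the GFP-negative libraries. All 6 GFP-positive libraries lay far under all 6 GFP-negative ones, with raw counts of 14 to 54. Flt1 fell by 6.94 ± 0.78 on the log2 scale (SE, 123-fold lower, edgeR adjusted p = 5.49e-04) in the small intestine, and its log2 difference was -4.68 ± 0.71 (25.7-fold lower, adjusted p = 0.00221) in the colon. In falling order of mean CPM, the groups were GFP-negative small intestine, GFP-negative colon, GFP-positive colon and GFP-positive small intestine, and of the neighbours only the GFP-negative and GFP-positive colon groups did not overlap. The gene-level count does not separate the membrane receptor of Flt1 from its soluble form. Of the 13 blood endothelial markers, which include Flt1 and Kdr, 1 was higher and 9 lower in the small intestine, with a summed level of 342 to 1114 CPM in GFP-positive and 1008 to 3698 CPM in GFP-negative libraries. In the colon 4 were higher and 3 lower, with sums of 934 to 1021 CPM in GFP-positive and 280 to 1127 CPM in GFP-negative libraries. Much of the GFP-positive sums was Kdr, which had 234 to 687 CPM in small intestinal and 605 to 645 CPM in colonic GFP-positive libraries. Plvap, another of these markers, had 14.3 to 36.0 CPM in GFP-positive and 61.2 to 316 CPM in GFP-negative libraries of the colon. Its colonic difference was not called by edgeR in 5 of the 6 fits that left out 1 library (adjusted p up to 0.193). The part of the blood endothelial markers in the Flt1 difference was not tested.

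Kdr (ENSMUSG00000062960, chromosome 5, 75932827 to 75978458, minus strand), the main signalling receptor of VEGF-A, was present in all 4 groups and fell with Flt1 in neither tissue. In the small intestine it had 586, 687 and 234 CPM in GFP-positive libraries and 387, 239 and 114 CPM in GFP-negative ones. Its colonic values were 645, 630 and 605 CPM in GFP-positive libraries and 192, 96.4 and 50.3 CPM in GFP-negative ones. The small intestinal groups overlapped through GFP-positive replicate 3, while the colonic groups were far apart. Kdr was higher by a log2 of 2.48 ± 0.56 (SE, 5.56-fold, edgeR adjusted p = 0.0176) in the colon. This call was lost without GFP-positive replicate 2 (adjusted p = 0.0561), without GFP-negative replicate 2 (0.0747) and without the filter on low counts (0.0807). In the small intestine the log2 difference was 1.03 ± 0.54 (adjusted p = 0.283, 95% interval -0.15 to 2.21). From highest to lowest mean CPM came GFP-positive colon, GFP-positive small intestine, GFP-negative small intestine and GFP-negative colon, and all neighbours overlapped.

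Flt4 (ENSMUSG00000020357, chromosome 11, 49609263 to 49652739, plus strand), the receptor of VEGF-C and VEGF-D, had the largest rise among the members. It had 1191, 2027 and 433 CPM in GFP-positive and 104, 52.3 and 24.4 CPM in GFP-negative libraries of the small intestine. The colonic values were 1675, 1972 and 1664 CPM in GFP-positive and 28.5, 14.5 and 6.21 CPM in GFP-negative libraries. The groups did not overlap in either tissue, and GFP-positive replicate 3 of the small intestine was the lowest of the 6 GFP-positive libraries. Flt4 rose by 4.34 ± 0.73 on the log2 scale (SE, 20.2-fold, edgeR adjusted p = 0.00352) in small intestinal cells and by 6.76 ± 0.82 (108-fold, adjusted p = 5.98e-04) in colonic cells. Its group means had the same order as those of Kdr, and only the GFP-positive and GFP-negative small intestinal groups, next to each other in that order, did not overlap. Flt4 is itself 1 of the 12 lymphatic markers and is part of their counts and sums. Of these 12 markers, 7 were higher in small intestinal cells and 10 in colonic cells, and none was lower. Of all tested genes, 4.24% and 4.62% were higher in these comparisons. In GFP-negative libraries the 12 markers summed to 213 to 658 CPM (small intestine) and 214 to 365 CPM (colon). Among them Prox1, the transcription factor that specifies lymphatic endothelium, had 99.6 to 360 CPM in GFP-positive against 5.15 to 33.3 CPM in GFP-negative libraries of the small intestine, and 349 to 385 against 4.18 to 10.9 CPM in the colon. The part of the other lymphatic markers in the Flt4 difference was not tested.

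**Figure D2:**
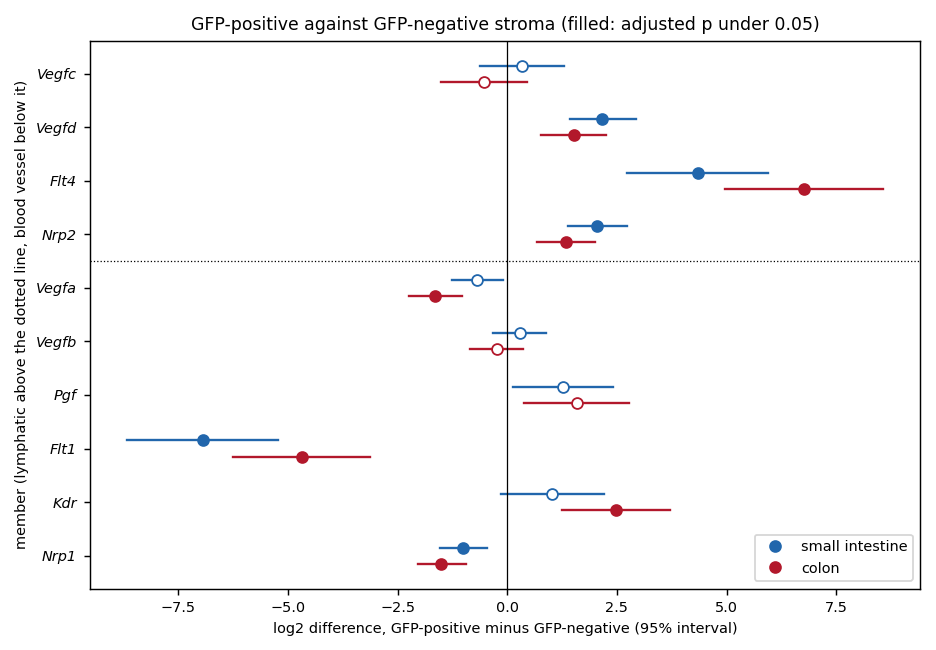
Log2 difference of GFP-positive minus GFP-negative cells for each member with its 95% interval, in the small intestine (blue) and colon (red), filled where the adjusted p was under 0.05, with lymphatic members over and blood vessel members under the dotted line. Flt4, at 4.34 and 6.76, and Flt1, at -6.94 and -4.68, lie at opposite ends.

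Levels of different genes can be set side by side only per length, here as TPM, a transcript abundance that takes gene length into account. Short noncoding genes took 89.6% to 93.5% of all TPM, so absolute TPM of the members were low, but ratios within a library do not depend on that. Of the summed TPM of Flt1, Kdr and Flt4, Flt4 made up 63.1% to 73.3% in GFP-positive libraries and 6.69% to 7.68% in GFP-negative ones of the small intestine, and 71.0% to 74.5% against 3.92% to 6.09% in the colon. Flt1 made up 0.0594% to 0.804% of it in GFP-positive and 59.9% to 62.9% in GFP-negative libraries of the small intestine, and 0.140% to 0.355% against 50.9% to 68.3% in the colon. The share of Kdr overlapped between the sorts, with 26.3% to 36.1% in GFP-positive and 29.5% to 33.3% in GFP-negative libraries of the small intestine, and 25.2% to 28.9% against 27.8% to 43.0% in the colon.

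**Figure D3:**
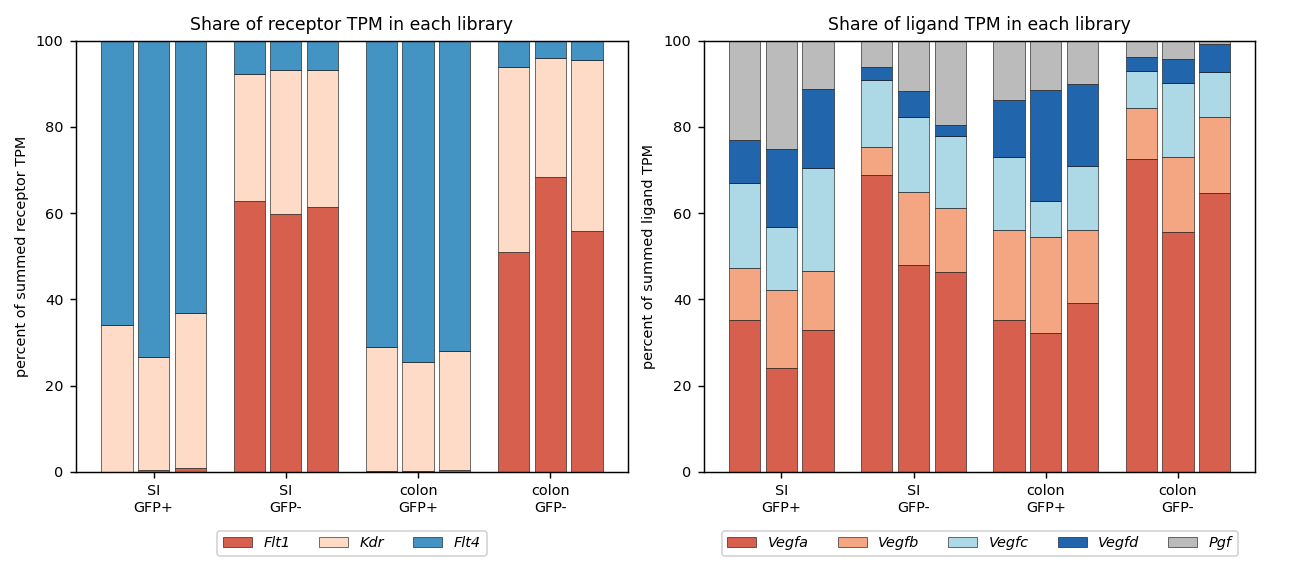
Percent of the summed TPM of the receptors Flt1, Kdr and Flt4 (left) and of the 5 ligands (right) in each library, 3 bars per group. The GFP-positive bars are filled mostly by Flt4 (63.1% to 74.5%), the GFP-negative bars mostly by Flt1 (50.9% to 68.3%), and among ligands Vegfa takes 24.1% to 39.1% in GFP-positive and 46.3% to 72.5% in GFP-negative libraries.

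Receptor levels were also set against the endothelial genes Pecam1 and Cdh5, which encode adhesion molecules of blood and lymphatic endothelium alike. Pecam1 had 132 to 451 CPM in GFP-positive and 172 to 540 CPM in GFP-negative libraries of the small intestine, and 561 to 677 against 46.0 to 162 CPM in the colon. Per 100 CPM of Pecam1 plus Cdh5, Flt4 had 149 to 196 CPM in GFP-positive and 7.80 to 10.9 CPM in GFP-negative libraries of the small intestine, and 138 to 168 against 8.33 to 10.5 CPM in the colon. On the same basis Flt1 had 0.176 to 0.977 CPM in GFP-positive against 52.6 to 64.3 CPM in GFP-negative libraries of the small intestine, and 0.226 to 0.571 CPM in GFP-positive against 76.6 to 82.1 CPM in GFP-negative libraries of the colon. Scaled this way, the 3 libraries of each group lay close together for Flt4, as did the GFP-negative ones for Flt1, while the low Flt1 values of GFP-positive libraries spread at least as widely as their CPM. The sorts were far apart for both genes. Kdr per 100 CPM of Pecam1 plus Cdh5 was 66.2 to 88.6 CPM in GFP-positive and 35.6 to 40.9 CPM in GFP-negative libraries of the small intestine, but 53.0 to 59.2 CPM in GFP-positive and 67.5 to 69.5 CPM in GFP-negative libraries of the colon. With Tie1, Erg and Egfl7 as the scale, chosen after seeing the data, the small intestinal Kdr groups overlapped (92.0 to 169 in GFP-positive and 130 to 201 in GFP-negative libraries per 100 CPM of those genes). These ratios are given as descriptions, without a test.

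**Figure D4:**
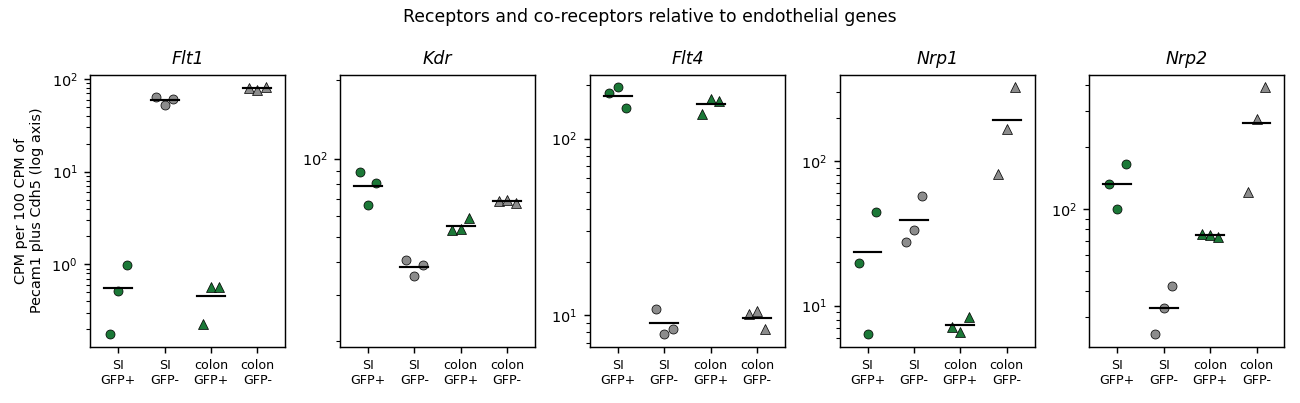
CPM of each receptor and co-receptor per 100 CPM of Pecam1 plus Cdh5 (log axis) in each of the 12 libraries, by group. Flt4 lies at 138 to 196 in GFP-positive and 7.80 to 10.9 in GFP-negative libraries, with the 3 libraries of each group close together. Nrp1 spreads from 81.2 to 326 in the GFP-negative colon, where its unscaled level was an even 227 to 243 CPM and Pecam1 ranged from 46.0 to 162 CPM.

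Nrp2 (ENSMUSG00000025969, chromosome 1, 62703285 to 62818695, plus strand), the neuropilin that binds VEGF-C and aids FLT4, was high in GFP-positive cells. It had 871, 1041 and 481 CPM in GFP-positive and 234, 222 and 123 CPM in GFP-negative libraries of the small intestine. Colonic libraries had 924, 881 and 749 CPM in GFP-positive and 339, 381 and 292 CPM in GFP-negative libraries. The sorts did not overlap in either tissue, and unlike Flt4 the gene kept a level of over 100 CPM in every GFP-negative library. Nrp2 rose by 2.05 ± 0.31 on the log2 scale (SE, 4.14-fold, edgeR adjusted p = 0.00136) in small intestinal cells and by 1.34 ± 0.30 (2.52-fold, adjusted p = 0.0142) in colonic cells. The colonic call was lost without GFP-positive replicate 1 (adjusted p = 0.0521) or 2 (0.0565) or without GFP-negative replicate 1 (0.0554) or 3 (0.0712). By mean CPM the order was GFP-positive colon, GFP-positive small intestine, GFP-negative colon and GFP-negative small intestine, and all neighbours but the 2 GFP-positive groups were apart. Of the 12 lymphatic markers described with Flt4, 7 were higher in small intestinal and 10 in colonic cells. Of 12 fibroblast markers, 10 were higher in small intestinal cells, and 3 were higher and 1 lower in colonic cells. Between GFP-negative groups Nrp2 was higher in every colonic library, while the lymphatic markers summed to 214 to 365 CPM in the colon and 213 to 658 CPM in the small intestine. The part of these markers in the Nrp2 difference was not tested. Nrp2 overlaps the antisense gene Gm29083 and the transcript Gm37121, with 0 shared exonic bases.

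Nrp1 (ENSMUSG00000025810, chromosome 8, 128358604 to 128503363, plus strand), the neuropilin that binds VEGF-A and aids KDR, had the opposite pattern. It had 131, 65.6 and 128 CPM in GFP-positive and 260, 222 and 166 CPM in GFP-negative libraries of the small intestine. In the colon it had 86.5, 76.5 and 85.1 CPM in GFP-positive and 227, 230 and 243 CPM in GFP-negative libraries. Every GFP-positive library was lower than every GFP-negative one. Nrp1 fell by 1.00 ± 0.25 on the log2 scale (SE, 2.00-fold lower, edgeR adjusted p = 0.0212) in the small intestine, and its log2 difference was -1.50 ± 0.25 (2.82-fold lower, adjusted p = 0.00257) in the colon. The small intestinal call was lost without GFP-negative replicate 1 (adjusted p = 0.0638), with only the libraries compared in the fit (0.145) and on the deposited log2(TPM + 1) scale (0.222). In falling order of mean CPM, the groups were GFP-negative colon, GFP-negative small intestine, GFP-positive small intestine and GFP-positive colon, and only the 2 small intestinal groups, as neighbours, were apart. The ratio of Nrp2 to Nrp1 TPM was 2.19 to 8.91 in GFP-positive and 0.439 to 0.559 in GFP-negative libraries of the small intestine, and 4.95 to 6.56 against 0.698 to 0.904 in the colon. Pericyte markers were lower in the same comparisons, 5 of 9 tested in small intestinal cells (sums of 484 to 668 CPM in GFP-positive and 570 to 1989 CPM in GFP-negative libraries) and 4 of 9 in colonic cells (220 to 236 and 499 to 827 CPM), none was higher, and Higd1b was at 0 in the GFP-positive libraries of both tissues, as was Cox4i2 in those of the small intestine. Other lists held lower genes as well. In small intestinal cells 7 of 10 smooth muscle, 6 of 8 enteric glia and 0 of 10 telocyte markers were lower. In colonic cells 8 of 10 smooth muscle, 3 of 8 enteric glia and 9 of 10 telocyte markers were lower. No marker of these lists was higher in either tissue. Of 6 markers of interstitial cells of Cajal, 1 was higher and 2 lower in small intestinal cells, and 1 was higher and 4 lower in colonic cells. Of 11 epithelial markers, 9 were lower in small intestinal cells and none was called in colonic cells. The part of any of these cell types in the Nrp1 difference was not tested. Mir1903 lies within Nrp1 on the same strand and shares 80 exonic bases with it.

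Among the ligands, Vegfd (ENSMUSG00000031380, chromosome X, 164373378 to 164402650, plus strand) was the only one called in both tissues. Its window at the start, chrX:164373272-164373571 (plus strand, RefSeq, GRCm38.p6), is shown because its base composition set it apart. Capitals mark GGAA or TTCC, found 4 times, and TTATCT, the reverse complement of the GATA motif AGATAA, at position -29.
Vegfd: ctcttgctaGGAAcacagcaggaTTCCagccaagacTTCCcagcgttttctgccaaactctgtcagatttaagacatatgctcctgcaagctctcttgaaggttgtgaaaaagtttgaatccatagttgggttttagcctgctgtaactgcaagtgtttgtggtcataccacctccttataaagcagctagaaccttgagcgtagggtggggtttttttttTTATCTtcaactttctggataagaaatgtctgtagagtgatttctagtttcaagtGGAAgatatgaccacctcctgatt
It held 42.0% G and C and 2 CpG, while the other 11 member windows held 59.3% to 75.3%. AGATAA on either strand occurred in 2 of the 12 member windows, those of Vegfd and Vegfa, and in 11.2% of all windows. ACGTG, the hypoxia response core, occurred in 1 member window, a second start of Vegfa, and in 19.6% of all, and ACAATG, a SOX motif, in 0 of the 12 and in 12.6% of all.

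Vegfd had 27.5, 28.8 and 44.8 CPM in GFP-positive and 6.13, 10.8 and 5.31 CPM in GFP-negative libraries of the small intestine. Its colonic values were 21.0, 32.7 and 38.1 CPM in GFP-positive and 7.92, 10.5 and 13.6 CPM in GFP-negative libraries. The sorts did not overlap in either tissue, and small intestinal GFP-positive replicate 3, the GFP-positive library with the lowest Flt4, had the highest Vegfd of all 12. Vegfd rose by 2.17 ± 0.35 on the log2 scale (SE, 4.52-fold, edgeR adjusted p = 0.00183) in small intestinal cells and by 1.52 ± 0.34 (2.86-fold, adjusted p = 0.0132) in colonic cells. The colonic call was lost without GFP-positive replicate 2 (adjusted p = 0.0548) or 3 (0.0564) or without GFP-negative replicate 1 (0.0718) or 2 (0.0615), and on the log2(TPM + 1) scale (0.0854). From highest to lowest mean CPM came GFP-positive small intestine, GFP-positive colon, GFP-negative colon and GFP-negative small intestine, and only the 2 colonic groups, as neighbours, were apart. The fibroblast markers also moved in the small intestine, where 10 of 12 were higher and none lower, with sums of 41198 to 63114 CPM in GFP-positive and 8265 to 23528 CPM in GFP-negative libraries. In the colon 3 of 12 were higher and 1 lower, with sums of 20826 to 25479 and 25640 to 28151 CPM. Their part in the Vegfd difference was not tested.

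Vegfc (ENSMUSG00000031520, chromosome 8, 54077606 to 54187096, plus strand), the other ligand of FLT4, did not separate the sorts. It had 35.8, 16.8 and 31.7 CPM in GFP-positive and 35.0, 22.6 and 8.84 CPM in GFP-negative libraries of the small intestine. Colonic libraries had 13.7, 8.32 and 17.3 CPM in GFP-positive and 21.6, 20.9 and 14.2 CPM in GFP-negative libraries. The groups overlapped in both tissues, with log2 differences of 0.34 ± 0.44 (SE, edgeR adjusted p = 0.722) in small intestinal and -0.52 ± 0.45 (adjusted p = 0.608) in colonic cells. By mean CPM the order was GFP-positive small intestine, GFP-negative small intestine, GFP-negative colon and GFP-positive colon, and all neighbours overlapped. Per length, Vegfd had 0.519 to 1.24 times the TPM of Vegfc in GFP-positive and 0.150 to 0.357 times in GFP-negative libraries of the small intestine, and 0.795 to 3.06 against 0.318 to 0.612 times in the colon.

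Vegfa (ENSMUSG00000023951, chromosome 17, 46016993 to 46032369, minus strand) had the highest mean TPM of the 5 ligands in every group. It had 65.4, 45.8 and 39.8 CPM in GFP-positive and 100, 55.1 and 87.0 CPM in GFP-negative libraries of the small intestine. In the colon it had 35.7, 26.1 and 46.9 CPM in GFP-positive and 126, 116 and 96.9 CPM in GFP-negative libraries. The small intestinal groups overlapped, while every colonic GFP-positive library lay under every GFP-negative one. Vegfa fell by 1.64 ± 0.28 on the log2 scale (SE, 3.12-fold lower, edgeR adjusted p = 0.00270) in the colon, a call lost on the log2(TPM + 1) scale (adjusted p = 0.0639). In the small intestine the log2 difference was -0.68 ± 0.27 (adjusted p = 0.144), which became a call without GFP-negative replicate 2 (-0.89, adjusted p = 0.0394). In falling order of mean CPM, the groups were GFP-negative colon, GFP-negative small intestine, GFP-positive small intestine and GFP-positive colon, and all neighbours overlapped. Markers of other cells moved with it in the colon: 9 of 10 telocyte markers (sums of 104 to 161 CPM in GFP-positive and 1201 to 1266 CPM in GFP-negative libraries) and 8 of 10 smooth muscle markers (687 to 803 and 3242 to 4217 CPM) were lower. Epithelial markers, of which none of 11 was called there, summed to 391 to 2164 CPM in GFP-positive and 1250 to 2904 CPM in GFP-negative libraries. Their part in the Vegfa difference was not tested.

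Pgf (ENSMUSG00000004791, chromosome 12, 85166635 to 85177790, minus strand), the gene of placental growth factor, a ligand of FLT1, was low in the colon. It had 47.6, 37.7 and 22.0 CPM in GFP-positive and 8.42, 13.6 and 22.5 CPM in GFP-negative libraries of the small intestine. Its colonic values were 13.7, 11.2 and 13.6 CPM in GFP-positive and 6.89, 5.03 and 1.01 CPM in GFP-negative libraries. The colonic sorts were apart, and the small intestinal ones overlapped only through replicate 3 of each sort. Neither difference was called by edgeR, with log2 values of 1.28 ± 0.52 (SE, adjusted p = 0.157) in small intestinal and 1.58 ± 0.55 (adjusted p = 0.109) in colonic cells, though DESeq2 called the colonic one (adjusted p = 0.0384) and limma-voom the small intestinal one (0.0446). From highest to lowest mean CPM came GFP-positive small intestine, GFP-negative small intestine, GFP-positive colon and GFP-negative colon, and only the 2 colonic groups, as neighbours, were apart.

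Vegfb (ENSMUSG00000024962, chromosome 19, 6982473 to 6987651, minus strand), the other ligand of FLT1, was the most even member. It had 17.9, 20.0 and 18.4 CPM in GFP-positive and 8.66, 19.5 and 18.2 CPM in GFP-negative libraries of the small intestine. Colonic libraries had 18.7, 15.6 and 19.1 CPM in GFP-positive and 18.3, 24.4 and 20.4 CPM in GFP-negative libraries. All groups overlapped, with log2 differences of 0.28 ± 0.28 (SE, edgeR adjusted p = 0.618) in small intestinal and -0.24 ± 0.28 (adjusted p = 0.726) in colonic cells. By mean CPM the order was GFP-negative colon, GFP-positive small intestine, GFP-positive colon and GFP-negative small intestine, and all neighbours overlapped.

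In the ligand mixture, measured as percent of the summed TPM of the 5 ligands, Vegfa took 24.1% to 35.1% in GFP-positive and 46.3% to 68.8% in GFP-negative libraries of the small intestine, and 32.2% to 39.1% against 55.7% to 72.5% in the colon. Vegfd took 10.2% to 18.3% in GFP-positive and 2.50% to 6.18% in GFP-negative libraries of the small intestine, and 13.3% to 25.9% against 3.20% to 6.41% in the colon. The Vegfa share was thus lower and the Vegfd share higher in every GFP-positive library than in any GFP-negative library of the same tissue. The Vegfc share overlapped between the sorts, with 14.6% to 23.8% in GFP-positive and 15.6% to 17.3% in GFP-negative libraries of the small intestine, and 8.44% to 16.8% against 8.67% to 17.3% in the colon. Counted over the members, the groups did not overlap for 5 of 10 in the small intestine, where this held for 21.9% of all tested genes, and for 8 of 10 in the colon, where it held for 35.6%.

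Whether the GFP effect differed between colon and small intestine was asked with an interaction term. None of the 10 members was called by edgeR, limma-voom or DESeq2, while edgeR called 2.06% of all tested genes, and 3 members had an unadjusted p under 0.05, which 14.5% of all genes had. These were Flt4, with a colonic minus small intestinal effect of 2.42 ± 0.92 on the log2 scale (SE, adjusted p = 0.243), Flt1, with 2.26 ± 0.92 (adjusted p = 0.281), and Vegfa, with -0.96 ± 0.39 (adjusted p = 0.261). Kdr, called in the colon only, had 1.45 ± 0.76 (adjusted p = 0.430), so its effects were not shown to differ. The other members were between -0.86 and 0.30.

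Within GFP-positive cells, no member was called between colon and small intestine by edgeR, limma-voom or DESeq2, while edgeR called 4.57% of all tested genes. Pgf was lower in every colonic library (11.2 to 13.7 CPM) than in any small intestinal one (22.0 to 47.6 CPM), with a log2 difference of -1.48 ± 0.52 (SE, edgeR adjusted p = 0.166). It was the only 1 of 10 members whose groups did not overlap, which held for 24.7% of all genes, and edgeR called it in a fit of these 6 libraries alone (adjusted p = 0.0168). Vegfc had -1.10 ± 0.45 (adjusted p = 0.235), and these 2 members were those with an unadjusted p under 0.05, which 16.3% of all genes had. The receptors Flt4, Kdr and Flt1 had log2 differences of 0.54, 0.32 and 0.71, and Nrp2 had 0.09; for each of the 4 the groups overlapped.

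Within GFP-negative cells, no member was called between colon and small intestine by edgeR or limma-voom, while edgeR called 4.21% of all tested genes, and DESeq2 called 2 members. Those were Pgf, at 1.01 to 6.89 CPM in the colon and 8.42 to 22.5 CPM in the small intestine (-1.78 ± 0.55, edgeR adjusted p = 0.0960, DESeq2 adjusted p = 0.0165), and Flt1, at 61.2 to 222 and 177 to 609 CPM (-1.55 ± 0.60, 0.193 and 0.0482 by the same tools). Flt4 had -1.88 ± 0.67 (edgeR adjusted p = 0.154) and Nrp2 had 0.81 ± 0.30 (adjusted p = 0.160). With the replicate number as a block, edgeR called both (adjusted p = 0.0434 for Flt4 and 0.0426 for Nrp2), though the deposited names tie only replicate 3 across the tissues. With libraries that share an identifier in their names as a correlated block, limma-voom called neither (0.151 for Flt4 and 0.0513 for Nrp2), and both TPM scales called Nrp2 (0.0326 and 0.0275). These 4 had an unadjusted p under 0.05, which 18.2% of all genes had. The groups did not overlap for Pgf and for Nrp2, 2 of 10 members, against 22.6% of all genes. Without both small intestinal replicates 3, an alternative chosen after seeing the data, Flt4 was called as lower in the colon (-2.25, adjusted p = 0.0292).

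The genes whose profiles over the 12 libraries lay nearest to each member were sought among 7215 genes, by the root-mean-square distance of centred log2 CPM. For Flt4 they were Adgrg3 (0.40), Reln (0.51) and Mmrn1 (0.60). For Flt1 they were Vwf (0.74), the gene of von Willebrand factor, Plvap (1.31) and Pcdh1 (1.31). Kdr lay nearest to Dysf (0.30), Arap3 (0.30) and Fam43a (0.31), and Nrp2 to Mical2 (0.28), Fam124a (0.30) and Rab11fip5 (0.31). Nrp1 lay nearest to Plekhh2 (0.19), Ncam1 (0.22) and Myo10 (0.23). Vegfd lay nearest to Slit3 (0.32), Adamtsl3 (0.32) and Trabd2b (0.34), Vegfa to Pappa (0.19), Pde4d (0.29) and Ehbp1l1 (0.32), and Vegfc to Slc4a3 (0.38), Nckap5l (0.40) and Usp54 (0.40). Pgf lay nearest to Npr1 (0.67), Rarb (0.76) and Gadd45b (0.79), and the even Vegfb lay 0.15 from Klhdc2 and 0.18 from Antxr2 and Uxs1. Members with small differences have near neighbours by this measure, so distances of different members are not comparable.

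VEGF-C and VEGF-D are made as precursors that proteases must cut. The list of processing genes, of which 11 were tested, also holds the matrix protein gene Svep1. In small intestinal GFP-positive cells 3 were higher and 1 lower (median log2 difference 0.44). In colonic ones 2 were higher and 1 lower (median -0.02). Of all tested genes, 4.24% were higher and 6.63% lower in the small intestine, and 4.62% and 4.06% in the colon. These shares also stand beside the counts of the lists below. A count of 1 gene in so short a list is not read as a result about it. In the small intestine Svep1, a matrix protein of lymphatic development, averaged 2954 CPM in GFP-positive and 596 CPM in GFP-negative cells (log2 2.31 ± 0.32, edgeR adjusted p = 7.45e-04). The proprotein convertase Pcsk6 averaged 268 and 113 CPM (adjusted p = 0.00743), and Plau, the urokinase activator of plasmin, averaged 110 and 26.0 CPM (adjusted p = 0.0214). The Plau call was lost without GFP-positive replicate 1 (0.0544) or 2 (0.0784), without GFP-negative replicate 1 (0.0873), as well as under a replicate block (0.0718). Plat, the tissue activator of plasmin, was lower, with 38.8 CPM in GFP-positive and 102 CPM in GFP-negative cells (adjusted p = 0.00307). In the colon, the convertase Pcsk5, which can cut VEGF-C, averaged 535 CPM in GFP-positive and 194 CPM in GFP-negative cells (adjusted p = 0.00259). Ccbe1, the cofactor that brings VEGF-C to its protease, averaged 14.0 and 4.21 CPM (adjusted p = 0.0108, and 0.0596 without GFP-negative replicate 3), and the protease gene Adamts14 fell by 2.32 ± 0.40 on the log2 scale (adjusted p = 0.00286).

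Of 17 receptor partners, 1 was higher and 3 lower in small intestinal cells (median -0.54), and 3 were higher and 1 lower in colonic cells (median 0.00). Itga9, an integrin subunit that binds VEGF-C and acts in lymphatic valves, averaged 199 CPM in GFP-positive and 83.3 CPM in GFP-negative cells of the small intestine (log2 1.25 ± 0.21, edgeR adjusted p = 0.00267), and 242 and 87.0 CPM in the colon (1.47 ± 0.21, adjusted p = 0.00104). Ptprj, a phosphatase that acts on KDR, fell by 1.72 ± 0.33 on the log2 scale in the small intestine (adjusted p = 0.00512). Efnb2, which controls the uptake of VEGF receptors, was lower in both tissues (adjusted p = 0.0326 in small intestinal and 0.0185 in colonic cells). Its call was lost in the small intestine without GFP-positive replicate 1 (0.115) or 3 (0.110) or GFP-negative replicate 1 (0.114), and in the colon without replicate 1 or 2 of either sort (0.0548 to 0.0811). Cdh5 was higher in the colon (2.87 ± 0.61, adjusted p = 0.0138, and 0.0644 without GFP-negative replicate 2). The small intestinal call of Itgb3 (adjusted p = 0.0286) was lost without GFP-positive replicate 1 (0.0958) or 3 (0.110) or GFP-negative replicate 2 (0.0676), and the colonic call of Shb (adjusted p = 0.0319) was lost without any 1 of the 6 libraries (0.0541 to 0.142).

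Class 3 semaphorins bind neuropilins and plexins, and some compete there with VEGF-A. Of 12 such genes, 4 were higher and 4 lower in small intestinal cells (median 0.22), and 4 were higher and 1 lower in colonic cells (median 0.03). Sema3d averaged 168 CPM in GFP-positive and 16.9 CPM in GFP-negative cells of the small intestine (log2 3.30 ± 0.31, edgeR adjusted p = 1.46e-04), and 357 and 16.3 CPM in the colon (4.45 ± 0.33, adjusted p = 3.74e-05). Sema3a, a ligand of NRP1 that takes part in lymphatic valve formation in the mouse, averaged 79.0 and 3.53 CPM in small intestinal cells (adjusted p = 3.06e-04), and 170 and 56.2 CPM in colonic cells (adjusted p = 0.0274, lost without any 1 of the 6 libraries at 0.0563 to 0.104). Sema3g and Sema3e were lower in the small intestine, with 0.736 CPM in GFP-positive and 71.5 CPM in GFP-negative cells for Sema3g (adjusted p = 0.00349) and a log2 difference of -5.31 ± 0.83 for Sema3e (adjusted p = 0.00167). The receptor genes Plxna4 (2.05 ± 0.41, adjusted p = 0.00793) and Plxna2 (1.54 ± 0.36, adjusted p = 0.0192) were higher in the colon. The Plxna2 call was lost without GFP-positive replicate 2 (0.0676) or without GFP-negative replicate 2 (0.0734) or 3 (0.0736).

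Vegfa is a target of hypoxia-inducible factors. Of 8 genes of hypoxia control, Epas1, which encodes HIF-2 alpha and is abundant in endothelium, was the only one called. It averaged 91.7 CPM in GFP-positive and 743 CPM in GFP-negative cells of the small intestine (log2 -3.02 ± 0.36, edgeR adjusted p = 4.13e-04), and 182 and 509 CPM in the colon (-1.49 ± 0.34, adjusted p = 0.0145). The colonic call was lost without GFP-positive replicate 1 (0.0696) or 2 (0.0575) or without GFP-negative replicate 1 (0.0515). Of 10 tested hypoxia targets, 2 were higher and 2 lower in small intestinal cells, and 1 was higher in colonic cells. Adm, the gene of adrenomedullin, a peptide needed for lymphatic growth in the mouse, averaged 43.6 CPM in GFP-positive and 7.04 CPM in GFP-negative cells of the small intestine (2.62 ± 0.33, adjusted p = 5.53e-04). Ndrg1 averaged 365 and 114 CPM in the colon (1.68 ± 0.33, adjusted p = 0.00635). The small intestinal calls of Ldha (-0.90, adjusted p = 0.0212), P4ha1 (0.79, adjusted p = 0.0446) and Ankrd37 (-2.11, adjusted p = 0.0496) did not hold throughout. Ldha lost its call without GFP-positive replicate 1 (0.0888). P4ha1 lost it without GFP-positive replicate 1, 2 or 3 or without GFP-negative replicate 1 or 3 (0.0756 to 0.137). Ankrd37 lost it without GFP-positive replicate 2 or 3 or without GFP-negative replicate 1, 2 or 3 (0.0598 to 0.139).

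Of 13 genes of the VEGF response and of tip cells, the leading cells of a sprout, 1 was higher and 2 lower in small intestinal cells, and 3 were higher and 2 lower in colonic cells. Esm1, a tip cell gene of blood vessels, was lower in the small intestine (log2 -5.09 ± 1.05, edgeR adjusted p = 0.00814) and in the colon (-4.53, adjusted p = 0.0170), the colonic call being lost without GFP-positive replicate 2 (0.0777) or without GFP-negative replicate 1 (0.0591) or 2 (0.0543). Pdgfb, which draws pericytes to vessels, fell by 4.27 ± 0.67 on the log2 scale in the small intestine (adjusted p = 0.00193), and the apelin receptor gene Aplnr fell by 5.31 in the colon (adjusted p = 0.00698, though 0.224 with limma-voom). Rcan1, a target of calcineurin signalling, was higher in the colon (1.57 ± 0.33, adjusted p = 0.0103). Dll4, the Notch ligand of tip cells, was higher in the colon as well (2.65, adjusted p = 0.0322), a call lost without GFP-positive replicate 1, 2 or 3 or without GFP-negative replicate 2 or 3 (0.0644 to 0.122).

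**Figure D5:**
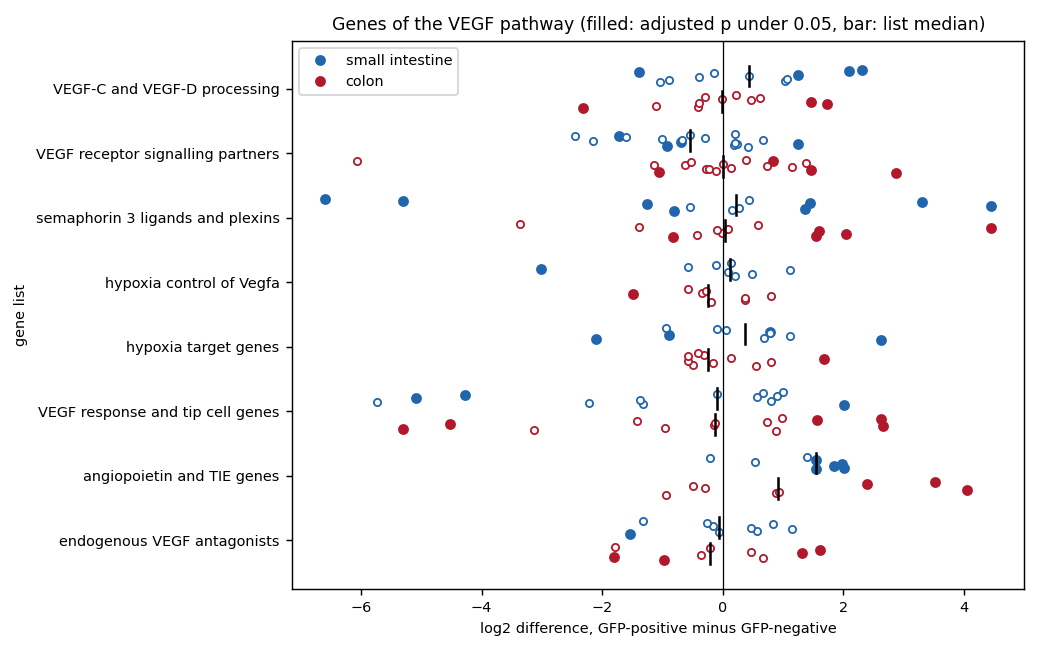
Log2 difference of GFP-positive minus GFP-negative cells for the tested genes of 8 pathway lists in each tissue, one point per gene, filled where the adjusted p was under 0.05, with a bar at the list's median. The angiopoietin and TIE list, which also holds Angptl1 and Angptl4, has the highest medians, 1.55 for small intestine and 0.91 for colon. The other medians lie between -0.54 and 0.44.

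Angiopoietins and TIE receptors form the other main vascular signalling system. The list of 8 genes also holds the angiopoietin-like genes Angptl1 and Angptl4. Of the 8, 5 were higher in small intestinal cells (median 1.55), Angptl1 and Angptl4 among them. In colonic cells 3 were higher (median 0.91), Angptl1 among them, and none of the 8 was lower in either tissue. The angiopoietin-like gene Angptl1 averaged 200 CPM in GFP-positive and 50.8 CPM in GFP-negative cells of the small intestine (log2 1.98 ± 0.42, edgeR adjusted p = 0.0109, and 0.0788 without both replicates 3), and 59.9 and 3.67 CPM in the colon (4.05 ± 0.49, adjusted p = 4.77e-04). Angpt2, which acts as a TEK agonist in lymphatics of the mouse, averaged 64.4 and 16.0 CPM in the small intestine (adjusted p = 0.0212), and this call was lost without GFP-positive replicate 1 (0.0768) or 2 (0.0764) or without GFP-negative replicate 1 (0.0575) or 3 (0.0728). Angptl4 averaged 131 and 44.8 CPM there (adjusted p = 0.0306), lost without the same 4 libraries (0.0872 to 0.114), and Angpt1, the main TEK ligand, was also higher (1.55, adjusted p = 0.0179), lost without replicate 3 of the GFP-positive (0.0669) or GFP-negative sort (0.0527). In the colon the receptor gene Tek averaged 301 CPM in GFP-positive and 57.3 CPM in GFP-negative cells (2.39 ± 0.38, adjusted p = 0.00190). Tie1 averaged 259 and 22.7 CPM there (3.52 ± 0.82, adjusted p = 0.0246), a call lost without GFP-positive replicate 1, 2 or 3 or without GFP-negative replicate 2 or 3 (0.0523 to 0.108).

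Of 9 antagonists of VEGF, 1 was lower in small intestinal cells, and 2 were higher and 2 lower in colonic cells. Ccn2, a matricellular protein that binds VEGF-A, averaged 42.0 CPM in GFP-positive and 122 CPM in GFP-negative cells of the small intestine (log2 -1.54 ± 0.29, edgeR adjusted p = 0.00444). It was also lower in the colon (-0.98, adjusted p = 0.0498), a call lost without any 1 of the 6 libraries (0.0997 to 0.216). The protease gene Htra1 averaged 100 CPM in GFP-positive and 349 CPM in GFP-negative cells of the colon (-1.80 ± 0.29, adjusted p = 0.00221). Thbs1, the gene of the angiogenesis inhibitor thrombospondin, was higher in the colon (1.31, adjusted p = 0.0102), lost without GFP-negative replicate 2 (0.0540) or 3 (0.0513). So was Timp3, which blocks the binding of VEGF-A to KDR (1.61, adjusted p = 0.0164), lost without GFP-positive replicate 2 (0.0621) or without GFP-negative replicate 1 (0.0674) or 2 (0.0738).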

How the data were processed

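RNA of 12 libraries, 3 per group, was analysed from 2 deposited tables. Per the submitters' processing notes, the authors worked on mm10 and used Salmon 1.1.0 together with R 3.6.1; the annotation and any filter are not given in the sources used here. The deposited values are estimated counts of genes (expected counts) and were whole in 100% of cells and were taken as already rounded. The authors' second table holds deposited log2 values, log2(TPM + 1), whose pseudocount is 1. Of 32052 identifiers, 32001 received symbols from GENCODE M21 (GRCm38, the assembly of mm10).

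Counts were tested in R 4.3.3 with edgeR 4.0.16 (TMM factors, filterByExpr with a minimum count of 10, robust quasi-likelihood fit, 1 mean per group over all 12 libraries, 5 comparisons). Benjamini-Hochberg adjusted p under 0.05 over 16757 genes was a call. SE were derived from the fold change and the F statistic. DESeq2 1.42.0, limma 3.58.1 (voom and the TPM scales), other factors, no filter, only the libraries compared, a replicate block and leaving out each library were alternatives. The pipeline was run on simulated counts with known changes, drawn as independent libraries with the same dispersion for all genes. This checked the code and does not show how the test behaves on these data. Exact permutation of 3 against 3 libraries cannot go below p = 0.1, so it was not used. TPM for ratios were taken back from the deposited log2 values. Promoter windows came from RefSeq (GRCm38.p6), where all 10 members matched, with 12 windows, and were searched on both strands for 5 motifs, each spelled out beside its result, none of which is contained in another.

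Libraries of one group differed beyond sampling noise, and each was counted as 1 replicate. Such a spread does not show that the libraries are independent. The deposited names hold 5 identifiers, 4 on the 2 sorts of a replicate (for colonic replicate 1 only the tissue name) and 1 on all 4 replicate 3 libraries. What an identifier marks is not given in the sources used here. As an alternative chosen after seeing the data, limma-voom took them as a correlated block (consensus correlation 0.19). Deviations of same-numbered small intestinal libraries correlated at 0.32, 0.18 and 0.17. In the colon, where the names tie the sorts too, these were 0.01, 0.05 and 0.09.

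All members were named in every comparison. Of each pathway list, up to 4 called genes with the smallest adjusted p were named, and the 3 nearest profiles were sought among genes whose mean log2 CPM reached 4 (prior count 2). The members and lists were chosen with earlier results of these data known.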

Additional observations from a re-analysis of the deposited data

Results flagged for a closer look

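Kdr and Nrp2, set against Pecam1 plus Cdh5, differed between the sorts in opposite directions in the 2 tissues, in every library. For Kdr the log2 ratio of GFP-positive over GFP-negative cells was 1.02 in small intestinal and -0.31 in colonic cells. For Nrp2 it was 2.00 in the small intestine, where GFP-positive libraries had 100 to 166 and GFP-negative ones 24.7 to 42.2 CPM per 100 CPM of Pecam1 plus Cdh5, and -1.66 in the colon, with 73.3 to 75.9 and 121 to 392 CPM. These differences between tissues were not tested, and with Tie1 plus Erg plus Egfl7 as the scale the small intestinal groups overlapped for both genes (-0.26 for Kdr and 0.72 for Nrp2). Pecam1 plus Cdh5 did not separate the sorts in the small intestine, while both genes were higher in GFP-positive cells of the colon. In GFP-negative replicates 1 to 3 of the colon, Pecam1 had 162, 76.3 and 46.0 CPM and Cdh5 had 118, 62.4 and 28.5 CPM. Nrp2 itself had 339, 381 and 292 CPM in these libraries, so its ratio there did not follow its own level and spread mostly through the denominator. Unscaled, Kdr and Nrp2 were higher in GFP-positive cells of either tissue. Their log2 differences were 1.03 (small intestine, not called) and 2.48 (colon) for Kdr, and 2.05 and 1.34 for Nrp2.

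For 8 genes of the pathway lists the interaction term of edgeR was called, as it was for 2.06% of all tested genes. Of 11 processing genes 1 was higher and 1 lower, as of 8 angiopoietin and TIE genes. A single gene was called of 17 receptor partners, 12 semaphorin and plexin genes, 10 hypoxia targets and 9 antagonists each. None was called of 8 hypoxia control genes or 13 response and tip cell genes. Such small counts are not read as results about the lists. Plat had a colonic minus small intestinal effect of 2.00 ± 0.34 on the log2 scale (SE, adjusted p = 0.0152), Tek 2.61 ± 0.52 (adjusted p = 0.0262) and Shb 1.37 ± 0.31 (adjusted p = 0.0424). Svep1 had -2.09 ± 0.43 (adjusted p = 0.0295), Sema3a -2.84 ± 0.59 (adjusted p = 0.0333), Adm -2.07 ± 0.45 (adjusted p = 0.0363), Angpt1 -2.50 ± 0.52 (adjusted p = 0.0314) and Htra1 -2.36 ± 0.41 (adjusted p = 0.0167). Plat averaged 96.7 CPM in GFP-positive and 63.1 CPM in GFP-negative cells of the colon, against 38.8 and 102 CPM in the small intestine, and its call held without any 1 of the 12 libraries. The other calls did not: Htra1 was lost in 2 of the 12 fits that left out 1 library, Tek in 5, Angpt1 in 7, Svep1 and Sema3a in 8, and Shb and Adm in 10. The highest adjusted p were 0.0537 for Htra1 without colonic GFP-negative replicate 3 and 0.131 for Shb without colonic GFP-negative replicate 2. With the replicate block Svep1 (0.0521) and Shb (0.0752) were not called.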

How the results depend on the processing

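Flt1 and Flt4 in both tissues, small intestinal Vegfd and Nrp2, and colonic Nrp1 kept their direction and call under every alternative run. Counts of all genes called moved by over 1.5 times in places. In the small intestine (1821) they were 850 with only the libraries compared, 671 on the log2(TPM + 1) and 982 on the log2(TPM + 0.1) scale, and 1239 to 2644 without 1 library. In the colon (1456) they were 3016 with only the libraries compared and 816 to 1140 without 1 library. For the interaction (345) they were 1103 with DESeq2, 179 with limma-voom, 160 and 106 on the 2 TPM scales, and 69 to 1044 without 1 library. Between tissues in GFP-positive cells (765) they were 1430 with DESeq2, 364 with limma-voom, 470 with limma-voom and shared identifiers as a correlated block, 376 and 502 on the TPM scales, and 416 to 613 without 1 library. In GFP-negative cells (706) they were 406 with only the libraries compared, 1661 with DESeq2, 1509 and 1394 on the TPM scales, and 187 to 1229 without 1 library. The causes were not tested.

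Members called numbered 4 to 6 without 1 library in the small intestine (5) and 4 to 6 in the colon (7), where 4 was reached without GFP-positive replicate 2, and 0 to 0 in the other comparisons (0). With only the libraries compared, 1 member was called between tissues in GFP-positive cells. In GFP-negative cells 2 were called with DESeq2, 2 on each TPM scale (Vegfb and Nrp2), 2 with the replicate block (Flt4 and Nrp2, adjusted p = 0.0434 and 0.0426) and 1 without both small intestinal replicates 3. With the block the small intestine had 1931 calls, the colon 1535, the interaction 330, and the tissue comparisons 853 (GFP-positive) and 944 (GFP-negative), and it changed no other call of a member. With shared identifiers as a correlated block, the members called were 6 in the small intestine (Pgf added, adjusted p = 0.0299), 7 in the colon and 0 in the other comparisons.

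The TPM scales moved the median of all genes to 0.13 and 0.31 between tissues in GFP-positive cells (-0.02 by counts) and to 0.19 and 0.42 in GFP-negative cells (-0.06). On log2(TPM + 1) and log2(TPM + 0.1), signs there turned for Vegfa (0.03, 0.05), Vegfb (0.20, 0.29), Vegfd (0.11, 0.15), Nrp1 (0.05, 0.11) and P4ha1 (0.02, 0.03) in GFP-positive cells, and for Vegfc (0.13, 0.18), Epas1 (0.27, 0.30) and Nr4a1 (0.16, 0.17) in GFP-negative cells. Without both small intestinal replicates 3, signs turned for Vegfc in the small intestine (-0.13), for Pgf in the interaction (-0.37), for Vegfd (0.12), Kdr (-0.02) and Nrp2 (-0.17) in GFP-positive cells and for Nrp1 (-0.04) in GFP-negative cells. Kdr per endothelial genes turned to -0.26 in the small intestine with Tie1 plus Erg plus Egfl7. Without 1 library, values crossed 0 for Cdh5 (-0.07 to 0.79), Pecam1 (-0.75 to 0.12), Vegfb (-0.01 to 0.50) and Vegfc (-0.03 to 0.82) in the small intestine, for Nr4a1 (-0.50 to 0.18) and Pgf (-0.15 to 0.79) in the interaction, for Vegfd (-0.29 to 0.12), Kdr (-0.02 to 0.61), Nrp2 (-0.17 to 0.33) and Vegfb (-0.11 to 0.01) in GFP-positive cells, and for Vegfc (-0.60 to 0.28) and Nrp1 (-0.04 to 0.29) in GFP-negative cells. None of these was called with all 12 libraries on counts.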

Other observations

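Some vascular genes outside the VEGF family differed between colon and small intestine in both sorts, with calls of unequal firmness. Angptl4, which inhibits lipoprotein lipase, was lower in the colon, with 5.72 CPM in colonic and 131 CPM in small intestinal GFP-positive cells (log2 -4.52 ± 0.47, SE, n = 3 per group, edgeR adjusted p = 6.39e-04), and 8.19 and 44.8 CPM in GFP-negative cells (-2.46 ± 0.44, adjusted p = 0.0106, but 0.0619 without colonic replicate 3 and 0.0629 on the log2(TPM + 1) scale). Angptl1 was lower as well, with 59.9 CPM in colonic and 200 CPM in small intestinal GFP-positive cells (adjusted p = 0.0366, a call lost without any 1 of the 6 libraries but small intestinal replicate 2, up to 0.169, and with the replicate block, 0.0625), and 3.67 and 50.8 CPM in GFP-negative cells (adjusted p = 0.00236). Angpt4, a ligand of TEK, was higher in the colon at low levels, with 11.8 and 3.08 CPM in GFP-positive cells (adjusted p = 0.0348, a call lost in all 6 fits that left out 1 library, up to 0.127) and 6.15 and 0.837 CPM in GFP-negative cells (adjusted p = 0.0104, but 0.0622 with only the libraries compared). Ccn2 was higher in the colon, with 192 CPM in colonic and 42.0 CPM in small intestinal GFP-positive cells (2.19 ± 0.29, adjusted p = 0.00155) and 378 and 122 CPM in GFP-negative cells (1.62 ± 0.29, adjusted p = 0.00943). Sema3a separated the tissues in GFP-negative cells, with 56.2 CPM in the colon and 3.53 CPM in the small intestine (3.95 ± 0.47, adjusted p = 0.00135).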
